A study of Mus musculus with 113 samples.

Results

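The A, B, D and E cyclins are the regulatory subunits whose levels rise and fall through the cell division cycle, and 9 genes that encode them, *Ccna1*, *Ccna2*, *Ccnb1*, *Ccnb2*, *Ccnd1*, *Ccnd2*, *Ccnd3*, *Ccne1* and *Ccne2*, were followed through mouse embryos from the 2-cell (2C) to the 8-cell (8C) stage. They were taken by name from the 24006 genes listed for each library, and all 9 were present. Expression was given as FPKM (fragments per kilobase of transcript, scaled to the mapped fragments of the library), a unit that allows for transcript length, for 92 of the 113 samples of the series. The other 21 samples were not analysed here.

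A cyclin binds a cyclin-dependent kinase (CDK), switches it on and steers it to its substrates. D cyclins with CDK4 or CDK6 and E cyclins with CDK2 drive entry into S phase, A cyclins with CDK2 and CDK1 act in S phase and G2, and B cyclins with CDK1 start mitosis. Most cyclins are then destroyed by ubiquitin ligases, A and B cyclins in mitosis by the anaphase-promoting complex. Cleavage divisions of the early mouse embryo take place without growth, first on transcripts stored in the oocyte and then on transcripts of the activated embryonic genome. *Ccna1* is the germ cell A cyclin, known for its role in male meiosis.

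All embryos came from C57BL/6N females mated with PWK/PhJ males and had received an injection as zygotes. In the knockdown (KD) experiments, pools of embryos carried small interfering RNA (siRNA) against the nuclear receptor genes *Nr5a2*, *Rarg*, *Nr1h3* and *Nr2c2*, or a negative control siRNA (NC), with 2 pools in every group. The quadruple knockdown (4KD) held siRNA against all 4 genes, at 5 µM per gene against an NC of 20 µM, at the 4-cell (4C) and 8C stages. The triple knockdown (3KD) left out the siRNA of 1 gene at a time, at 5 µM per gene against an NC of 15 µM. The single KD used 5 µM of siRNA for 1 gene against 5 µM of NC. Both were at 8C. A further pair of groups at 2C compared *Nr5a2* siRNA with NC at 20 µM each. Doses are those of the sample labels, and the study's methods give a single dose for all NC groups. By those methods the siRNA of a gene was a mix of several siRNAs. In the editing experiment, single embryos received base editor mRNA (BE, 8 embryos per stage), guide RNA against *Nr5a2* (sgRNA, 8 embryos per stage), or both (BE + sgRNA, 14 embryos per stage) at 100 ng/µl, at 2C and 8C. The BE and sgRNA groups, which received a single component each, served as its controls.

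The study calls its pools of several embryos biological replicates. Whether they came from separate matings or injections is not given in the sources used here, so p-values measure the spread between these samples. FPKM was summed to 265390–556462 per pool and 83392–474480 per single embryo, and 5472–11921 genes per library reached 1 FPKM. The sum moved with stage. Its median was 264029 in 2C and 432036 in 8C control embryos, and 284398 in 2C and 483326 in 8C NC pools. Stage changes below are in FPKM without further scaling unless a scaling is named. Read counts were not given, so the depth behind a value is unknown. Column names divided the single embryos into an eBE and a BE4 set, named after base editors, and for 15 libraries with no editor in the name the set was taken from the library number. A further 3 columns were named for the 4-cell stage, those of replicates 13 and 14 labelled 8C BE + sgRNA and of replicate 8 labelled 2C sgRNA. The last went against its label: its summed FPKM over 8 oocyte-deposited genes was 78.0 and over 8 genes of the 2-cell burst of transcription 13.4, against 341–2954 and 130–1455 in the other 7 embryos of its group. The pair labelled 8C BE + sgRNA also stood apart, with summed oocyte-deposited genes at 182 and 345 against 37.3–157 in the other 12 embryos of that group, cumulus cell genes at 39.5–49.4 against 1.03–29.8 and sperm genes at 7.38–7.90 against 0. The library labelled 8C BE + sgRNA replicate 8 had the lowest FPKM sum and 1 of 5 housekeeping genes at 0. Without either kind of library the counts of cyclins called in the comparisons of single embryos were as given below, 5 between stages and 0 with editing. The targeted receptor was lower in each single KD: *Nr5a2* was at 9.65–12.8 against a mean of 49.5 in NC, *Rarg* at a mean of 4.56 against 30.5, *Nr1h3* at 0.394 against 10.7 and *Nr2c2* at 0.700 against 9.99, with limma adjusted p-values of 0.0115, 0.116, 0.157 and 0.0359. Base editing changes the sequence of *Nr5a2* and not necessarily its level (a mean of 52.1 in 8C BE + sgRNA against 46.2 in its controls), and the edited reads were not analysed here.

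The 9 genes lie on 7 chromosomes in the mm9 build (GENCODE vM1) and are annotated as protein coding. *Ccna1* (chr3:54849391-54858977) and *Ccna2* (chr3:36463788-36471072) share a chromosome, as do *Ccnd1* (chr7:152115836-152125774) and *Ccne1* (chr7:38883003-38892553). *Ccnb1* lies at chr13:101548605-101556525, *Ccnb2* at chr9:70255496-70269361, *Ccnd2* at chr6:127075797-127101066, *Ccnd3* at chr17:47642000-47736632 and *Ccne2* at chr4:11118498-11131926. *Ccnd3* and *Ccne2* are on the plus strand and the other 7 on the minus strand.

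Promoters are shown for the members whose levels are described most closely below: the B cyclins, both called higher after the 2C stage in NC pools, and *Ccne1* and *Ccnd3*, whose levels stood apart in most 8C pools with *Nr5a2* siRNA. Neither of the last 2 was called in a comparison of siRNA pools at 8C. The share of all genes that stand apart in this way was not counted. Each run gives the 250 bases before the RefSeq transcription start in the GRCm38.p6 build, on the strand of the gene, and the table used held promoters for 5 of the 9 members (6 promoters, 2 of them of *Ccnd3*). The window from 250 bases before to 50 after the start was searched on both strands for the cell cycle homology region (CHR, TTTGAA or TTCGAA), the CCAAT box, E2F sites (TTCCCGC or TTGGCGC or TTCGCGC) and the NR5A2 half-site (AAGGTCA or AAGGCCA). Capitals mark the matches.
*Ccnb1*, chr13:100786487-100786736, minus strand: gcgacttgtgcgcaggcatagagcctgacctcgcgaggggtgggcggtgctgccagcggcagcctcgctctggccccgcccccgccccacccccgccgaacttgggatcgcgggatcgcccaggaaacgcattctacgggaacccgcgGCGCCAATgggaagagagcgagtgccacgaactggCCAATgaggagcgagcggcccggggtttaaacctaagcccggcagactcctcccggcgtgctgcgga
*Ccnb2*, chr9:70421555-70421804, minus strand: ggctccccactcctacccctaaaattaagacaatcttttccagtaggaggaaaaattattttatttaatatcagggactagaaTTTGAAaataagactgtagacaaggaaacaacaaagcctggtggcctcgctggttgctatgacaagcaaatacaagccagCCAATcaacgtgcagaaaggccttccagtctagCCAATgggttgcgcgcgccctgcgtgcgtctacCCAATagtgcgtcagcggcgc
*Ccne1*, chr7:38107491-38107740, minus strand: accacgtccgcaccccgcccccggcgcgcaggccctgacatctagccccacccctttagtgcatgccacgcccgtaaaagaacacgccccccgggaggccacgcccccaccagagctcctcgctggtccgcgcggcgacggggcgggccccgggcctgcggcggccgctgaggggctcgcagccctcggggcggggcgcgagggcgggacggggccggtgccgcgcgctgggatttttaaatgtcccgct
*Ccnd3*, the first of its promoters, chr17:47504801-47505050, plus strand: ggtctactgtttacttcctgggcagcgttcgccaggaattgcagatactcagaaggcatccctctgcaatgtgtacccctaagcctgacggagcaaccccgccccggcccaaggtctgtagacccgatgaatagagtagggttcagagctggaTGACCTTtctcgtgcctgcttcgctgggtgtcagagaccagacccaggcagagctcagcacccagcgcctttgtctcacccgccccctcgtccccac

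*Ccnb1* held 2 CCAAT boxes, starting at −99 and −67, and an E2F match (TTGGCGC on the opposite strand, from −102) that overlaps the first of them. *Ccnb2* held 3 CCAAT boxes, at −87, −54 and −21, and a CHR at −167 with another at +5, beyond the bases printed. Such CHR and CCAAT pairs are known from promoters of genes that peak in G2 and mitosis. The first *Ccnd3* promoter held an NR5A2 half-site on the opposite strand from −97, and the second, like that of *Ccna1*, held a CCAAT box. None of these letters was found in the *Ccne1* window. Of all 32851 promoters of this length, 37.4% held a CCAAT box, 19.2% a CHR, 10.6% an NR5A2 half-site and 8.07% an E2F site, so a match is a description and not a binding site.

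The first question was how the cyclins change between the 2C and 8C stages in control embryos. *Ccnb1* rose in single embryos and in pools, *Ccnd2* fell in both, *Ccnd1* and *Ccne2* fell in single embryos, and *Ccne1* was among the 3 highest members at either stage, at mean FPKM of 185 at 2C and 153 at 8C in single embryos. In the 16 single control embryos per stage, *Ccnb1* had a mean 2.89 times as high at 8C and *Ccna2* 1.84 times as high on the scale of the test, while *Ccne2* was at 0.213 of its 2C level, *Ccnd2* at 0.389 and *Ccnd1* at 0.439. Each comparison was tested with limma on log2(FPKM + 1), which understates the change of genes with low FPKM, and a gene was called at an adjusted p below 0.05 over all genes tested. Of the 9 members, 8 passed the filter on low values (*Ccna1* did not) and 5 were called, 2 higher and 3 lower, beside 72.6% of all genes tested (29.2% higher and 43.4% lower). A stage change was thus the rule for genes in this comparison, and the median of all genes itself moved by −0.31 on the log2 scale, against −0.03 for the median of the 8 cyclins. In whole embryos, fewer cells of a type and less RNA per cell cannot be told apart.

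*Ccnb1*, the main mitotic cyclin, ranged from 12.6 to 105.7 FPKM (median 42.6) in the 2C control embryos and from 33.4 to 236 (median 153) in the 8C control embryos. The ranges overlapped, and the 8C median lay above every 2C embryo. Its change was 1.53 on the log2 scale (SE 0.31, limma adjusted p = 4.81e-05), and it was 1.80 among eBE embryos. The BE4 set held no 2C sgRNA embryo, so its value of 2.06 compared BE embryos alone, 4 at each stage. The 4 sgRNA embryos of that set at 8C, at 33.4–90.0 FPKM, had no part in it. *Ccna2*, the somatic A cyclin, ranged from 15.9 to 385 (median 130) at 2C and from 41.3 to 347 (median 274) at 8C. These ranges overlapped over most of their length, and the change was 0.88 (SE 0.35, limma adjusted p = 0.0241). It depended on the kind of scaling: it was 0.03 (adjusted p = 0.927) after quantile normalization. The call was kept in 11 alternatives, median-ratio scaling among them. It was lost in 2, quantile normalization and the limits of the study's methods. *Ccnb2*, the B cyclin found at the Golgi, ranged from 7.61 to 49.5 (median 19.1) and from 3.29 to 85.7 (median 42.0), and it was not called (adjusted p = 0.197).

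*Ccne2* showed the greatest change of the 8 cyclins tested in single embryos. It ranged from 0.483 to 64.9 FPKM (median 22.6) at 2C and from 0.607 to 9.36 (median 4.29) at 8C, so that the 2C median lay above every 8C embryo. The lowest 2C value was that of the sgRNA embryo whose column was named for the 4-cell stage. The other 7 embryos of its group started at 7.60. The difference was −2.23 on the log2 scale (SE 0.35, limma adjusted p = 9.86e-07), the only one of the 5 calls that also met the limits given in the methods of the study (adjusted p below 0.01 and a log2 change of at least 2), as 19.2% of all genes did. *Ccne1*, the other E cyclin, ranged from 43.2 to 421 (median 164) at 2C and from 46.8 to 247 (median 160) at 8C. The interval of its change, −0.75 to 0.43 on the log2 scale, spans zero and leaves room for a change of either sign.

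The D cyclins, which link growth signals to the cycle, parted in the same embryos. *Ccnd1* ranged from 1.66 to 21.8 FPKM (median 4.15) at 2C and from 0.460 to 3.89 (median 1.41) at 8C, and *Ccnd2* from 0 to 9.72 (median 3.30) and from 0 to 1.47 (median 0.222). Both were low at either stage, and every 8C control embryo lay below the 2C median. Their changes were −1.19 (SE 0.26, limma adjusted p = 0.000167) and −1.36 (SE 0.32, limma adjusted p = 0.000299). *Ccnd3* ranged from 4.11 to 51.8 (median 29.0) and from 11.6 to 87.7 (median 21.4), with a change whose interval was −0.55 to 0.75. *Ccna1* was listed at 0 in all 32 pools and in all 30 single 8C embryos, and above 0 in 5 of the 30 single 2C embryos, at 0.731–3.86 FPKM.

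**Figure D1:**
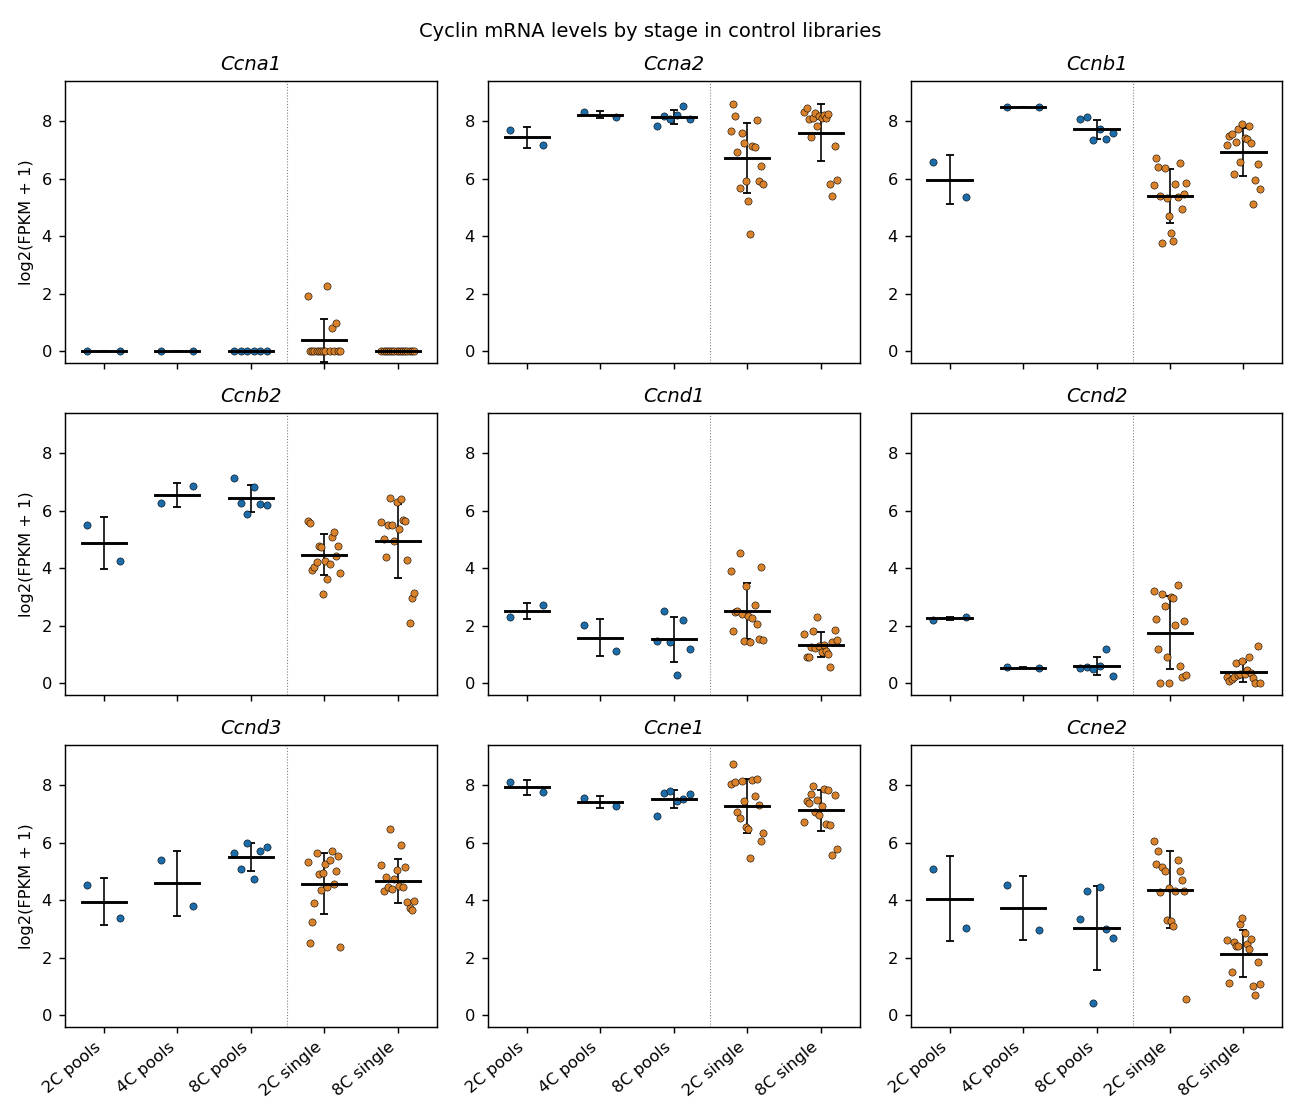
FPKM of the 9 cyclin genes on a log2(FPKM + 1) axis in control libraries, in 9 panels by stage: 2C, 4C and 8C NC pools in blue and single 2C and 8C control embryos (BE or sgRNA) in orange, each point 1 library, the black line the mean and the bar the SD. *Ccnb1* is higher at 4C and 8C than at 2C, *Ccnd2* and, in single embryos, *Ccne2* are lower, and *Ccna1* lies at or near 0.

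NC pools gave a 4C time point. *Ccnb1* was at 94.2 and 40.3 FPKM in the 2C pools, 357 and 357 in the 4C pools, and 163–281 (median 202) in the 6 NC pools at 8C. It was highest at 4C, and the 8C pools lay between the other stages without overlap. From 2C to 4C it changed by 2.51 (SE 0.44, limma adjusted p = 0.00305) and from 2C to 8C by 1.75 (SE 0.36, limma adjusted p = 0.00295). *Ccnb2* was at 44.7 and 17.8 at 2C, 75.5 and 114 at 4C, and 58.7–141 (median 75.7) at 8C, with 2C lowest and the later stages overlapping. Its changes were 1.68 (SE 0.54, limma adjusted p = 0.0405) and 1.56 (SE 0.44, limma adjusted p = 0.0148), and without 2C NC replicate 2 they were 1.04 (adjusted p = 0.238) and 0.92 (adjusted p = 0.199). The first also missed the threshold without either 4C NC pool (adjusted p = 0.0852 and 0.191).

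*Ccnd2* was at 3.63 and 3.87 in the 2C pools, 0.457 and 0.434 at 4C and 0.195–1.25 (median 0.445) at 8C. The 2C pools lay far above the rest, which overlapped. It fell by 1.72 on the log2 scale (SE 0.40, limma adjusted p = 0.00988) to 4C and by 1.65 (SE 0.32, limma adjusted p = 0.00217) to 8C. *Ccnd3* was at 21.9 and 9.29 at 2C, 40.7 and 12.8 at 4C, and 25.9–61.9 (median 50.3) at 8C, above both 2C pools. Its change to 8C was 1.56 (SE 0.52, limma adjusted p = 0.0305), and it fell short of the threshold in 9 of 17 alternatives. Among these were 6 that left out 1 pool, either 2C NC pool, either single KD NC pool, or replicate 1 of the 4KD or 3KD NC pools (adjusted p = 0.0619–0.33), and without 2C NC replicate 2 it was 0.98 (adjusted p = 0.33). *Ccnd3* made up 62.0% of the summed D cyclin FPKM in the 2C NC pools, 90.4% in the 4C NC pools and 94.1% in the 6 NC pools at 8C (86.3–97.4%).

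In all, 3 of 8 members tested were called from 2C to 4C (2 higher, 1 lower) beside 28.2% of all genes (11.2% higher and 17% lower), and 4 of 8 from 2C to 8C (3 higher, 1 lower) beside 46.6% (18.6% higher and 27.9% lower). By the limits of the study's methods the counts were 1 and 0 members, beside 10.2% and 18.1% of all genes. *Ccna2*, at 206 and 145 at 2C, 317 and 280 at 4C and 225–370 at 8C, did not overlap between 2C and 8C but was not called (0.71, SE 0.32, limma adjusted p = 0.0877), and its sign turned to −0.29 after quantile normalization. *Ccne2* did not pass either test: it was at 33.1 and 7.06 at 2C, 22 and 6.69 at 4C and 0.321–20.7 at 8C, a difference of −1.02 from 2C to 8C with an interval of −3.08 to 1.05. The 2C pools came from another experiment than the 4C and 8C pools, so that stage and experiment cannot be told apart in these comparisons. Within the 4KD experiment no member was called from 4C to 8C in NC pools, where limma called 0% of 10476 genes, or in 4KD pools, where it also called 0%; at an unadjusted p below 0.05 the counts of members were 0 and 0, beside 7.41% and 7.67% of all genes.

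The order of the levels shifted with stage. In the 2C NC pools *Ccne1* came first at 244 ± 43.5 FPKM (SD, n = 2), followed by *Ccna2* at 176 ± 43.4, *Ccnb1* at 67.2 ± 38.1, *Ccnb2* at 31.2 ± 19.0, *Ccne2* at 20.1 ± 18.4, *Ccnd3* at 15.6 ± 8.92, *Ccnd1* at 4.75 ± 1.16, *Ccnd2* at 3.75 ± 0.17 and *Ccna1* at 0. The ranges of *Ccnb1*, *Ccnb2*, *Ccne2* and *Ccnd3* overlapped from each to the next, and those of the others did not. In the 4C NC pools the order was *Ccnb1* (357 ± 0.41), *Ccna2* (299 ± 25.8), *Ccne1* (170 ± 23.5), *Ccnb2* (94.6 ± 27.1), *Ccnd3* (26.8 ± 19.8), *Ccne2* (14.3 ± 10.8), *Ccnd1* and *Ccnd2*, and of these neighbours *Ccnd3* and *Ccne2* alone overlapped. In the 6 NC pools at 8C it was *Ccna2* (287 ± 47.8), *Ccnb1* (214 ± 51.0), *Ccne1* (186 ± 37.0), *Ccnb2* (89.1 ± 30.9), *Ccnd3* (46.2 ± 14), *Ccne2* (10.3 ± 8.01), *Ccnd1* (2.22 ± 1.65) and *Ccnd2* (0.544 ± 0.36). There each neighbour overlapped the next except that *Ccnd3* lay above *Ccne2* and *Ccnd2* above *Ccna1*.

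The exchange of *Ccne1* for *Ccna2* at the head of the order was seen within libraries, where it does not depend on scaling. The ratio of *Ccne1* to *Ccna2* FPKM was above 1 in 32 of 34 2C libraries (median 1.44), in 0 of the 2 NC pools at 4C (0.548–0.590) and in 9 of 54 8C libraries (median 0.582). All 24 pools at 8C were below 1. The 9 exceptions were single embryos, of 30 at 8C.

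**Figure D2:**
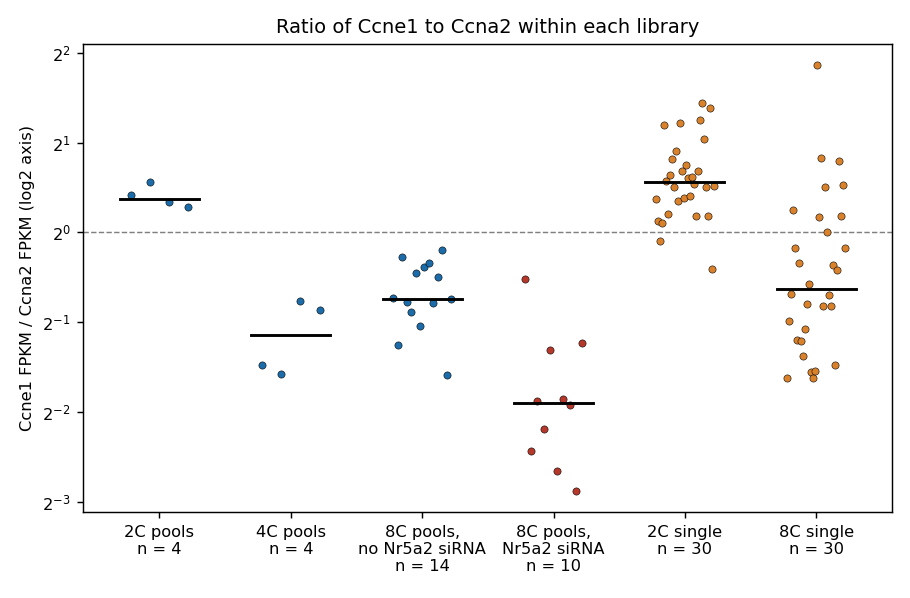
Ratio of *Ccne1* to *Ccna2* FPKM in each library on a log2 axis: 2C pools (4), 4C pools (4, with 2 of 4KD), 8C pools without (14) and with (10) *Nr5a2* siRNA, and single 2C and 8C embryos (30 each), with the median of each group as a line. The median lies above 1 at 2C and below 1 at 4C and 8C, and at 0.267 in the 8C pools with *Nr5a2* siRNA against 0.598 in those without.

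Lists of the other cell cycle machinery are to be read against the 72.6% of all genes called in single control embryos (29.2% higher and 43.4% lower). In these embryos, of the 7 CDK and Cks genes tested 4 were called higher and 1 lower at 8C; of 7 CDK inhibitor genes 1 was higher and 6 lower; of 18 Rb and E2F pathway genes 1 was higher and 12 lower; of 14 DNA replication licensing genes 8 were higher and 3 lower; of 23 genes of cyclin degradation 14 were higher and 2 lower; and of 15 other cyclins 1 was higher and 9 lower. *Cdk4*, the partner of D cyclins, had a mean of 13.9 FPKM at 2C and 109 at 8C (3.18, limma adjusted p = 6.4e-08), while *Cdk1*, the partner of A and B cyclins, had 88.0 and 172 (1.07, limma adjusted p = 0.0139). *E2f1*, an activator of S phase genes, went from 39.6 to 2.88 and *Cdkn1c*, an inhibitor of CDKs, from 22.4 to 2.45. *Wee2*, the oocyte kinase that holds CDK1 inactive, went from 156 to 0.423. *Btrc* and *Anapc10*, of the SCF and anaphase-promoting ubiquitin ligases, went from 3.64 to 39.4 and from 14 to 84.2. Markers moved with stage too: over the 8 oocyte-deposited genes the sum was 78.0–2954 in the 2C control embryos and 20.7–152 in the 8C control embryos, and its part in the falls of single cyclins was not tested. The lowest 2C sum was that of the sgRNA embryo whose column was named for the 4-cell stage.

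The second question was whether knocking down the receptors changed the cyclins at 8C. No member was called in any of the 11 comparisons of siRNA pools at 8C. The lowest adjusted p-values among them belonged to *Ccne1* and *Ccnd2* in the *Nr5a2* single KD. In that experiment *Ccne1* was at 180 and 206 FPKM in NC, 91.1 and 91.9 in *Nr5a2* KD, 109 and 165 in *Rarg* KD, 217 and 162 in *Nr1h3* KD, and 207 and 209 in *Nr2c2* KD. The pools of *Nr5a2* KD lay below all 8 others. *Ccne1* differed from NC by −1.06 on the log2 scale (SE 0.33, interval −1.78 to −0.35), with an adjusted limma p of 0.114, which was 0.1–0.402 over the alternatives. Against the mean of the other single KD groups the difference was −0.92 (SE 0.27, limma adjusted p = 0.0816). Neither passed the threshold, at which 2.75% and 3.95% of all genes were called. In *Rarg* KD, *Nr1h3* KD and *Nr2c2* KD no member had an unadjusted p below 0.05, beside 3.76%, 2.92% and 4.19% of all genes, and limma called 0.00984%, 0.00984% and 0.0787% of all genes.

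*Ccnd2* lay the other way. It was at 1.25 and 0.195 FPKM in NC, 1.52 and 2.54 in *Nr5a2* KD, 0 and 0.792 in *Rarg* KD, 0.102 and 0.131 in *Nr1h3* KD and 0.166 and 0.242 in *Nr2c2* KD. The *Nr5a2* KD pools were above all 8 others, and all 10 pools were at or below 2.54 FPKM. Against the other single KD groups its difference was 1.30 (SE 0.37, interval 0.49 to 2.1, limma adjusted p = 0.0761), and it passed the threshold after median-ratio scaling (1.42, adjusted p = 0.0495) and after quantile normalization (1.56, adjusted p = 0.0281). In the same comparison *Ccnd3* (73.2 and 73.4 against 26.5–59.2 in the 6 pools of the other KDs) differed by 0.88 (SE 0.37, limma adjusted p = 0.224) and *Ccnd1* (3.42 and 3.97 against 0–2.94) by 1.23 (SE 0.52, limma adjusted p = 0.226). Unadjusted p-values below 0.05 were thus found for 4 of 8 members here, beside 19.5% of all genes, and for 1 of 8 (*Ccne1*) against NC, beside 18.1%.

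In the 4KD experiment *Ccne1* was at 121 and 211 FPKM in NC and 67.2 and 89.5 in 4KD at 8C, and at 187 and 154 in NC and 105 and 102 in 4KD at 4C. At both stages the 4KD pools lay below the NC pools. The difference was −1.04 at 8C (SE 0.38, interval −1.90 to −0.17, limma adjusted p = 0.528) and its interval at 4C was −1.57 to 0.16. The difference between these effects, −0.33 with an interval of −1.55 to 0.89, was not distinguishable from zero, and in this contrast 0 of 8 members had an unadjusted p below 0.05, beside 2.47% of all genes and 0% called. limma called 0% of the 10476 genes tested at 8C and 0% at 4C, and *Ccne1* at 8C was the single member of 8 with an unadjusted p below 0.05, beside 7.48% of all genes, against 0 of 8 and 5.82% at 4C. *Ccnb1*, which did not pass the test, was at 270 and 281 in NC and 358 and 399 in 4KD at 8C.

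The 3KD experiment leaves out the siRNA of each gene in turn. *Ccne1* was at 224 and 173 FPKM in NC, 163 and 150 without *Nr5a2* siRNA, 123 and 54.7 without *Rarg* siRNA, 153 and 61.3 without *Nr1h3* siRNA, and 91.9 and 81.7 without *Nr2c2* siRNA. All groups were below NC, and the group without *Nr5a2* siRNA was nearest to it and overlapped the one without *Nr1h3* siRNA. Against NC the differences were −1.25 (SE 0.52, limma adjusted p = 0.701) without *Rarg* siRNA, −1.01 (limma adjusted p = 0.767) without *Nr1h3* siRNA and −1.17 (limma adjusted p = 0.651) without *Nr2c2* siRNA, and without *Nr5a2* siRNA the interval was −1.47 to 0.80. The group without *Nr5a2* siRNA differed from the mean of the other 3 by 0.81 with an interval of −0.11 to 1.74 (limma adjusted p = 0.554), where 0.282% of all genes were called and 10.1% had an unadjusted p below 0.05 (0 of 8 members).

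*Ccnd2* was at 0.420 and 0.507 FPKM in the NC pools of that experiment, 1.59 and 1.09 without *Nr5a2* siRNA, 2.31 and 2.38 without *Rarg* siRNA, 2.91 and 2.84 without *Nr1h3* siRNA and 3.86 and 2.27 without *Nr2c2* siRNA. All 4 groups lay above NC. Its differences from NC were 1.19, 1.41 and 1.45 in the groups with *Nr5a2* siRNA, in that order, with limma adjusted p-values of 0.701, 0.578 and 0.477. *Ccnd3* was at 61.9 and 25.9 in NC and at 169 and 78.1 without *Nr1h3* siRNA, a difference of 1.5 (SE 0.55, limma adjusted p = 0.614), and at 111 and 67.6 without *Rarg* siRNA, a difference of 1.1 (SE 0.55, limma adjusted p = 0.832). Members with an unadjusted p below 0.05 numbered 0, 2, 2 and 2 of 8 without *Nr5a2*, *Rarg*, *Nr1h3* and *Nr2c2* siRNA, beside 2.36%, 6.25%, 6.95% and 7.37% of all genes, while at the adjusted threshold 0 members and 0%, 0.0565%, 0.00941% and 0% of all genes were called. With the replicate number as a block, which in this experiment paired the pools, 0, 45, 35 and 65 genes were called in these comparisons and 262 in that of the group without *Nr5a2* siRNA with the other 3, and again 0 members. *Ccne2* differed from NC by 1.02, 1.20 and 1.55 in the first 3 of these groups, but its NC pools were at 0.321 and 20.7, and without the lower of them all 3 differences turned negative (−1.0, −0.82 and −0.46).

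**Figure D3:**
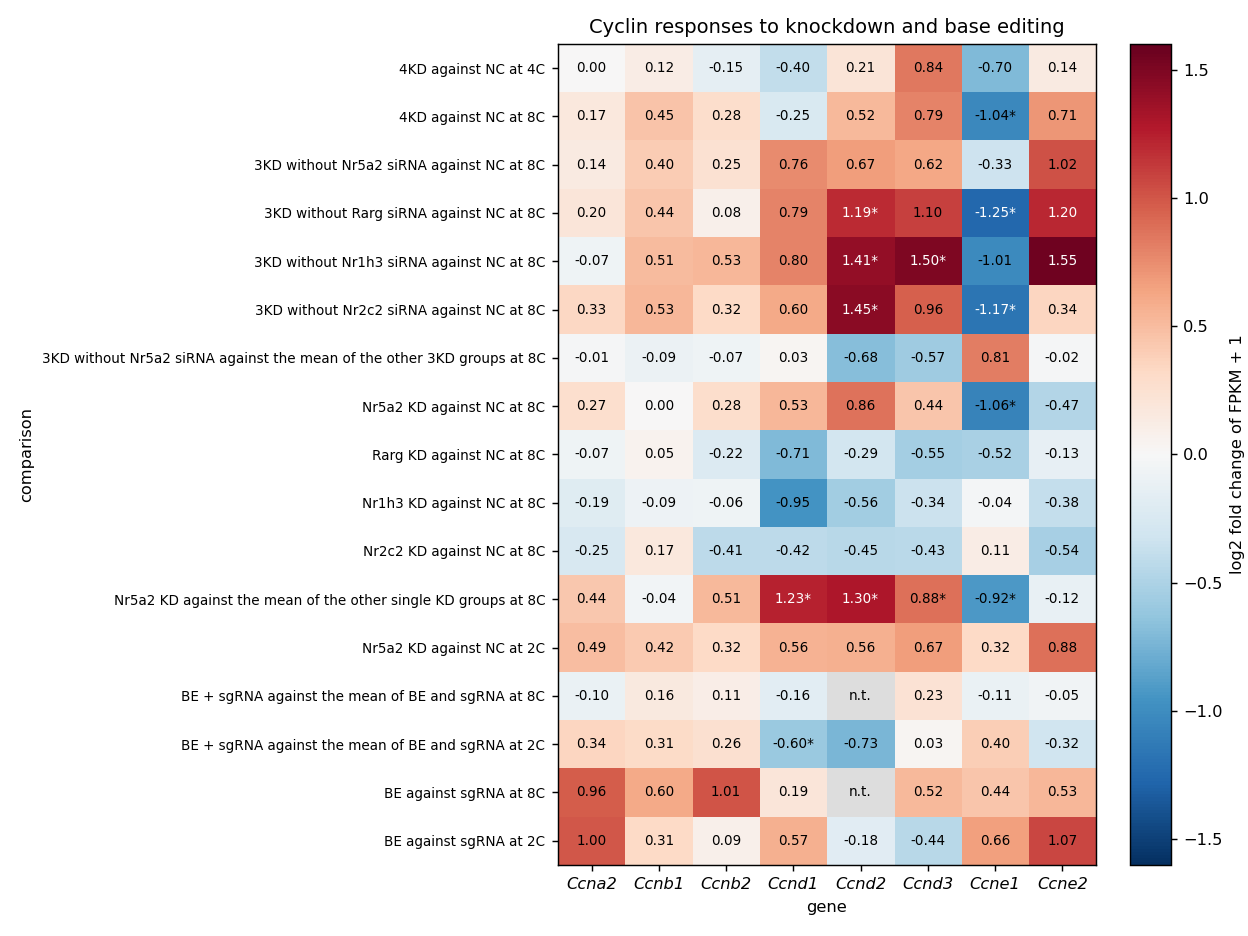
Log2 fold change of 8 cyclin genes (horizontal axis) in 17 comparisons of knockdown or editing (vertical axis), with color from lower to higher; a star marks an unadjusted limma p below 0.05 and n.t. a gene not tested. *Ccne1* is lower and *Ccnd2* higher in the comparisons of groups with *Nr5a2* siRNA with NC at 8C, and no cell passed the adjusted threshold.

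Set side by side over the 24 pools at 8C, the 10 pools with *Nr5a2* siRNA (5 groups) and the 14 without it (7 groups) stood as follows. This grouping was made after the values had been seen, and the pools came from 3 experiments with other siRNAs present in most, so it is a description with no test. The share of all genes that stand apart between these pools was not counted, so the counts below cannot be called particular to cyclins. *Ccne1* ranged from 54.7 to 153 FPKM (median 90.3) with *Nr5a2* siRNA and from 109 to 224 (median 177) without. Of the 10 pools 8 lay below the lowest of the 14. *Ccnd3* ranged from 47.1 to 169 (median 75.8) and from 25.9 to 66.0 (median 50.3), and *Ccnd2* from 0.683 to 3.86 (median 2.34) and from 0 to 1.59 (median 0.424). Above the highest pool without *Nr5a2* siRNA lay 8 of 10 pools for *Ccnd3* and 7 of 10 for *Ccnd2*. *Ccna2* (215–670, median 335, against 225–370, median 278), *Ccnb1* (157–399, median 270, against 163–281, median 195) and *Ccnb2* (65.6–153, median 111, against 49.5–141, median 73.5) overlapped. For these 3 genes 2, 3 and 1 of the 10 pools lay above the highest of the 14, and 2, 1 and 0 lay below the lowest. Summed oocyte-deposited genes were at 54.8–200 (median 109) with and 31.8–82 (median 53.9) without *Nr5a2* siRNA, and the part of these transcripts in the levels of *Ccnd2*, which fell from 2C to 8C in controls, was not tested.

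**Figure D4:**
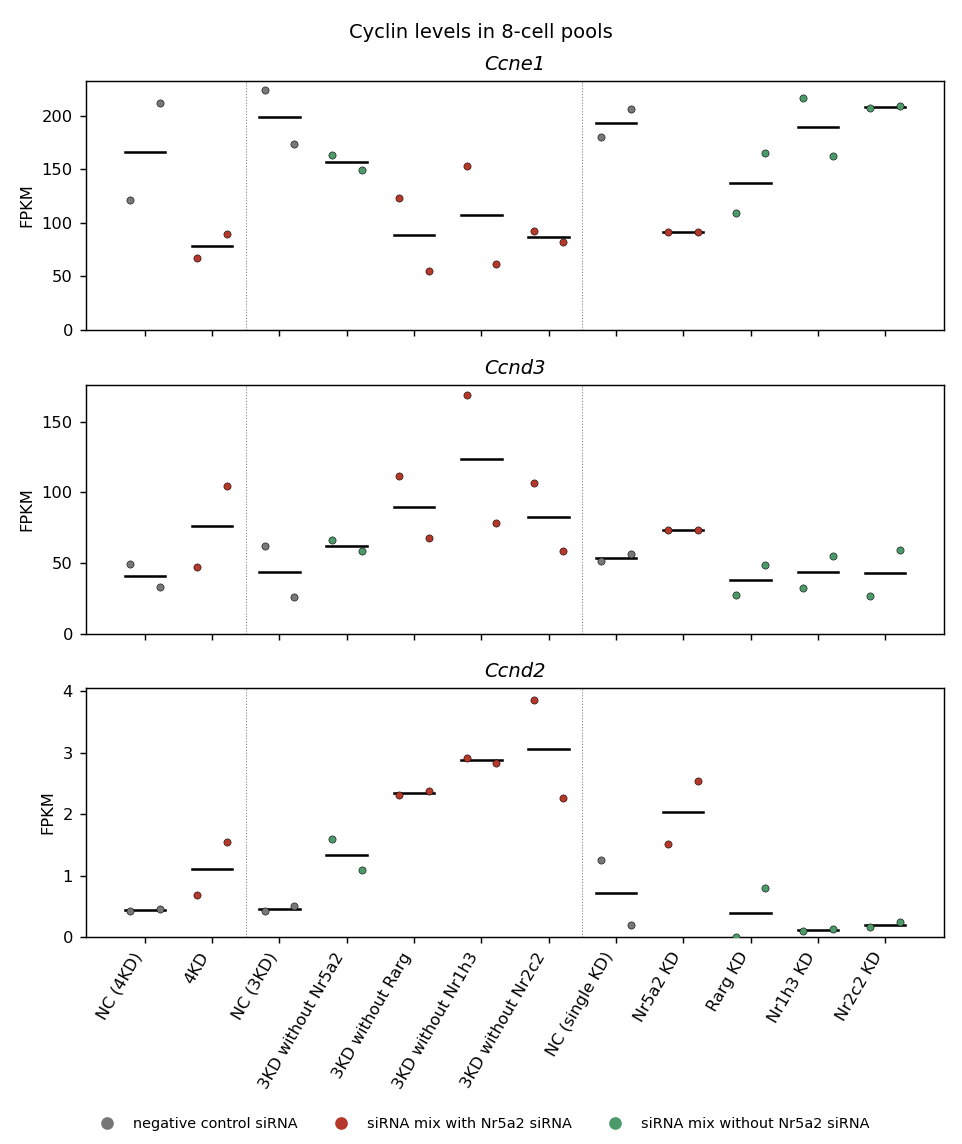
FPKM of *Ccne1*, *Ccnd3* and *Ccnd2* in the 12 groups of 8C pools, with each point 1 pool and the line the mean of 2: NC in grey, groups with *Nr5a2* siRNA in red and other knockdowns in green, with dotted lines between the 3 experiments. Red points lie low for *Ccne1* (54.7–153) and high for *Ccnd3* (47.1–169) and *Ccnd2* (0.683–3.86), and overlap the other pools at their edges.

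While no member was called, a CDK that A and B cyclins bind and its activator were. *Cdk1* was at 61.0 and 59.4 FPKM in *Nr5a2* KD and 256 and 189 in NC. Both KD pools lay far below NC, and the other single KDs were at 133–229. *Cdk1* fell by 1.85 on the log2 scale against NC (SE 0.32, limma adjusted p = 0.0123). *Cdc25b*, the phosphatase that removes the inhibitory phosphates of CDK1, was at 0.243 and 0.339 in *Nr5a2* KD and 7.52 and 12 in NC, and fell by 3.03 (SE 0.46, limma adjusted p = 0.00645). *Btrc*, the F-box protein that targets WEE1 and other cell cycle proteins for destruction, was at 16.8 and 14.2 in *Nr5a2* KD and 46.7 and 56.1 in NC, and fell by 1.67 (SE 0.36, limma adjusted p = 0.0345).

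These 3 genes were the called members of their lists: 1 of 7 CDK and Cks genes, 1 of 5 genes of the mitotic switch and 1 of 22 genes of cyclin degradation, beside 2.75% of all genes. Of 12 other cyclins, 5 CDK inhibitors, 15 Rb and E2F pathway genes, 14 licensing genes and 13 mitosis genes none was called against NC by limma. At an unadjusted p below 0.05, 1, 3 and 5 genes of the first 3 lists and 0, 0, 2, 2 and 2 of the others were lower and 0 of any list were higher, beside 18.1% of all genes. The median over the 8 cyclins was 0.27, beside −0.22 over all genes. Over the 24 pools at 8C, *Cdk1* ranged from 35.0 to 85.4 FPKM with *Nr5a2* siRNA and from 87.7 to 256 without, and *Cdc25b* from 0 to 1.32 and from 2.22 to 12.6, so that for both genes the 10 pools lay below all of the other 14. *Btrc* ranged from 13.2 to 26.8 and from 22.9 to 56.1, with 8 of the 10 pools below the lowest of the 14, and 5 and 4 of the 10 lay there for *Anapc10* and *Mad2l1*. These genes were named for their calls in the single KD experiment, so the place of its *Nr5a2* KD pools follows from that choice. The share of all genes that stand apart in this way was not counted. In the 4KD and 3KD experiments neither *Cdk1* nor *Cdc25b* was called, with limma adjusted p-values of 0.479 and 0.437 in 4KD against NC at 8C.

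**Figure D5:**
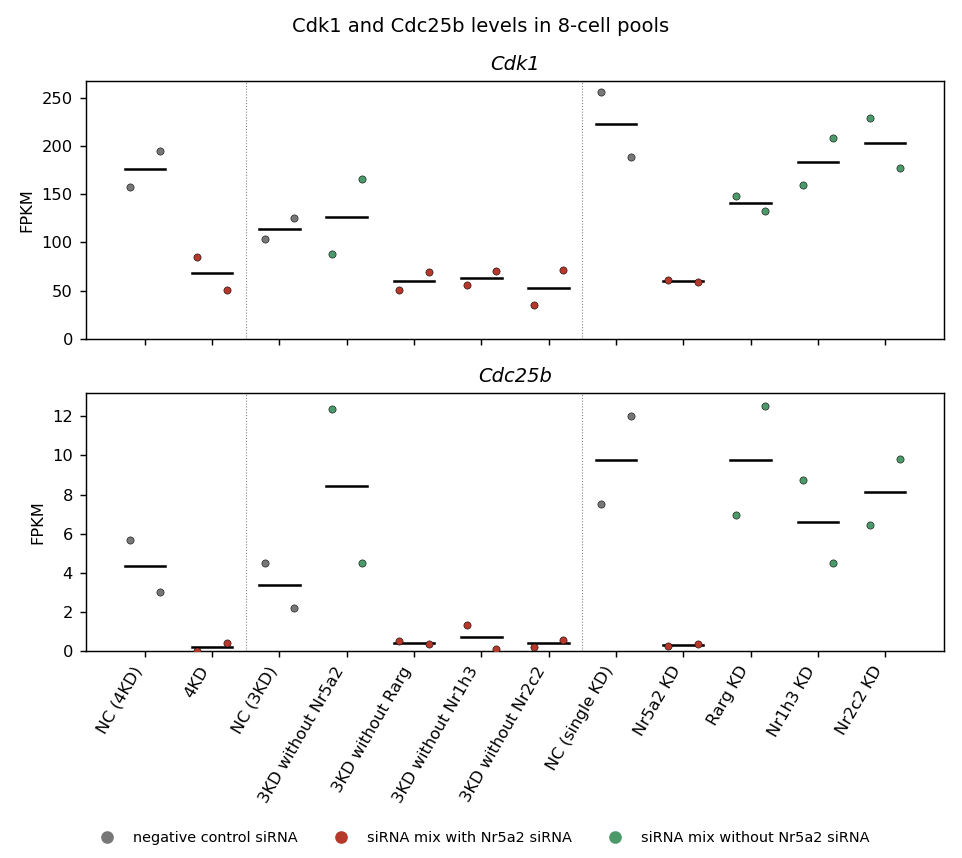
FPKM of *Cdk1* and *Cdc25b* in the 12 groups of 8C pools, drawn as for the cyclins, with each point 1 pool and the line the mean of 2. For both genes the red points, the pools with *Nr5a2* siRNA, lie below all others (35.0–85.4 against 87.7–256 for *Cdk1*, 0–1.32 against 2.22–12.6 for *Cdc25b*).

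At 2C, *Nr5a2* KD left no cyclin past the threshold, and 0 of 8 members had an unadjusted p below 0.05, beside 4.67% of all genes and 0.0167% called by limma. *Ccne1* was at 275 and 213 FPKM in NC and 294 and 310 in KD, with an interval of −0.51 to 1.14 on the log2 scale. *Ccna2* was at 206 and 145 and at 234 and 254, and *Ccne2* at 33.1 and 7.06 and at 28.3 and 30.6. The KD pools lay above NC for the first 2 genes and within its range for *Ccne2*.

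Base editing of *Nr5a2* was the second way in which the receptor was perturbed, in single embryos. At 8C *Ccne1* had a mean of 153 FPKM in BE + sgRNA and 153 in its controls. It ranged from 17.8 to 290 (median 136) with editing, from 104 to 247 (median 170) with BE alone and from 46.8 to 233 (median 127) with sgRNA alone, so that the groups overlapped throughout. Of the edited embryos, the 2 named for the 4-cell stage were at 194 and 290. The others were at 109–242 in the eBE set and 17.8–233 in the BE4 set, and all were in the test. The difference was −0.11 (SE 0.31, interval −0.74 to 0.52, limma adjusted p = 0.939). This interval overlaps the one given above around the −1.06 of pools under *Nr5a2* KD, which was not called either. The difference between the 2 designs was not tested. *Ccnd2* was below the filter at 8C, at 0–1.20 with editing and 0–1.47 in the controls. Of 7 members tested, 0 were called and 0 had an unadjusted p below 0.05, beside 0.164% and 10.8% of all genes.

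At 2C *Ccnd1* ranged from 0.877 to 5.23 FPKM (median 2.61) with editing, from 1.74 to 21.8 (median 4.59) with BE alone and from 1.66 to 15.6 (median 3.44) with sgRNA alone. The groups overlapped, with the highest embryos among the controls. Its difference was −0.60 (SE 0.29, limma adjusted p = 0.424), and −0.79 with the set as a term. Among eBE embryos it was −0.90, and among BE4 embryos, where BE alone was the control, −0.78. *Ccnd1* was the single member of 8 with an unadjusted p below 0.05, beside 11.6% of all genes and 0.00805% called. *Ccnd2* ranged from 0 to 5.29 with editing and from 0 to 9.72 in the controls, and its editing effect at 8C minus that at 2C was 0.83 (SE 0.41, limma adjusted p = 0.51), where 0.0385% of all genes were called. It was the single member of 8 with an unadjusted p below 0.05 in that contrast, beside 9.68% of all genes.

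The sgRNA and BE + sgRNA groups themselves differed with the set of the library. At 8C, *Ccnb2* was at 3.29–18.4 FPKM in the 4 sgRNA embryos of the BE4 set and at 40.2–83.2 in the 4 of the eBE set, and at 4.95–34.9 and 39.5–80.9 in the BE + sgRNA embryos of these sets. *Ccna2* was at 41.3–141 and 274–303 in sgRNA embryos and at 4.89–249 and 283–385 in BE + sgRNA embryos, and *Ccnb1* at 33.4–90.0 and 152–226 and at 11–131 and 158–280. In neither group did the sets overlap for these genes, and the share of all genes without overlap between the sets was not counted. In BE embryos, by contrast, *Ccna2* was at 175–347 in the BE4 set and 225–310 in the eBE set. Summed FPKM moved with the set as well, at 207918–268257 and 428014–466564 in sgRNA embryos, and its part in these levels was not tested. BE against sgRNA, the comparison between the control groups, called no member by limma and 0% of all genes at either stage, and 0 of 7 and 0 of 8 members had an unadjusted p below 0.05, beside 7.94% at 8C and 7.92% at 2C. *Ccnb2* differed between them at 8C by 1.01 (SE 0.55, limma adjusted p = 0.593), a difference of 0.03 among eBE embryos and 2.00 among BE4 embryos, and *Ccne2* at 2C by 1.07 (SE 0.57, limma adjusted p = 0.633).

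Across the 22 groups of the series, the genes whose mean log2(FPKM + 1) ran most like each cyclin were listed from 9180 genes with a mean of at least 5 FPKM in a group. Pearson's r over the 22 group means is given as a description, since groups share stage and, in part, experiment. *Ccnb1* ran with *Tbce* (0.977), *Ube2v2* (0.976) and *Psmg3* (0.976), and *Ccnb2* with *Pdhb*, *Ppid* and *Psma3* (0.962 each). *Ccna2* ran with *Cnih4* (0.967), *Gdi2* (0.952) and *Lsm8* (0.952), *Ccnd3* with *Cast* (0.93), *Abhd12b* (0.93) and *Bcat2* (0.923), and *Ccne1* with *Emc9* (0.879), *Cela1* (0.878) and *Sult5a1* (0.87). The D and E cyclins that fell had *Gm6644* (0.865), *Crabp1* (0.864) and *Shmt2* (0.855) beside *Ccnd1*, *Rsph1* (0.887), *Gstm1* (0.883) and *Dbr1* (0.882) beside *Ccnd2*, and *Csnk2b* (0.887), *Xlr3c* (0.883) and *Mob1a* (0.86) beside *Ccne2*. Among the cyclins themselves *Ccnb1* and *Ccnb2* were closest (0.915), followed by *Ccna2* with *Ccnb2* (0.853) and with *Ccnb1* (0.834), while *Ccne1* ran against *Ccnd3* (−0.668) and *Ccnb1* (−0.48).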

How the data were processed

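Libraries were made by Smart-seq2 and sequenced on pools of injected embryos (32 libraries) or single embryos (60 libraries). According to the study's methods, reads were mapped to mm9 with TopHat 2.1.1 and the authors computed the deposited FPKM with Cufflinks 2.2.1 on refFlat genes. FPKM divides by transcript length and mapped reads, so levels can be set side by side between genes, but a library dominated by a few genes lowers all others. No counts were used. Steps in low FPKM values, read against 15 reference libraries, gave a depth of 0.363 to 1.516 relative to the median library. The pools of the 4KD experiment were at 0.363–0.747. No column of another series was found.

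Groups came from the sample labels, and the 9 genes and all gene lists were chosen with earlier results of these data known. In each experiment limma 3.58.1 (R 4.3.3) was fitted to log2(FPKM + 1) over genes with a mean of at least 1 FPKM in a group, with empirical Bayes moderation with a trend, two-sided tests and Benjamini-Hochberg adjustment over all genes tested, in 24 comparisons. The edgeR test named in the methods needs counts and was not run. The scripts were tested on simulated data. All 9 members were named, with log2 changes where the unadjusted p was below 0.05 or the change at least 1 in size; other log2 changes and intervals were added after their values were seen. From each list at most 4 called genes with the largest changes were eligible (mean of at least 5 FPKM), and not all are given.

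Same-numbered pools deviated together in the 3KD experiment, with correlations of 0.278–0.513 between their deviations from group means over 10 pairs of groups. With 2 pools a group, both numbers give the same value. This was taken as pairing. In the 4KD experiment they deviated together within a stage (0.346 at 4C and 0.336 at 8C) but not between stages (−0.297 to −0.271). Elsewhere the numbers were not taken to pair samples. No main fit used a pairing. Alternatives covered the pseudocount (0.1), the filter (none, or a mean of 5 FPKM), median-ratio and quantile scaling, eBayes without a trend, the replicate block, the limits of the study's methods, the groups in the fit, left-out libraries and the eBE and BE4 sets. Promoters came from RefSeq (GRCm38.p6), gene positions from GENCODE vM1 (mm9). Intervals are 95% confidence intervals. Python 3.11.15 with numpy 2.4.6, pandas 2.3.3 and matplotlib 3.10.9 was used for the rest.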

Additional observations from a re-analysis of the deposited data

Results flagged for a closer look

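Among 34 pairs of a cyclin and a group of 8 single embryos, 4 had 1 embryo far from the rest by Dixon's ratio, which chance gives in about 1 of 20 groups. *Ccna1* was at 2.80 FPKM in 2C BE replicate 1 and at 0 in the other 7 embryos, and at 3.86 in 2C sgRNA replicate 2, where the next highest embryo was at 0.967. *Ccnd1* was at 15.6 FPKM in 2C sgRNA replicate 7, with the next at 5.65. *Ccnd3* was at 87.7 FPKM in 8C BE replicate 5, with the next at 36.4. No test of a difference between stages in the effect of knockdown or editing called a cyclin.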

How the results depend on the processing

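Over all comparisons the count of cyclins called was within 1.5 times the reported count in 325 results and moved in 6. Cyclins were called only in the stage comparisons from 2C. Those of 2C to 4C and 2C to 8C in NC pools and of 2C to 8C in single embryos gave 11, 15 and 12 of the 325. They gave 1, 2 and 1 of the 6. The rest of the 325 were counts of 0 that stayed at 0. The count also moved for *Nr5a2* KD against the other single KDs at 8C, from 0 to 1 under median-ratio scaling and to 1 under quantile normalization (*Ccnd2* in both). Under the limits of the study's methods it was 1 from 2C to 8C in single embryos, 1 from 2C to 4C in NC pools and 0 from 2C to 8C in NC pools. Leaving out single libraries gave 2–4 from 2C to 8C in NC pools, with 2 without 2C NC replicate 2, and 2–3 from 2C to 4C.

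For single genes, 446 values kept their side of the threshold, 28 were weaker, 2 stronger and 5 reversed. Reversed were *Ccne2* against NC without 8C NC (3KD) replicate 1 (leaving out single pools gave −1.0 to 3.03, −0.82 to 3.22 and −0.46 to 3.57 in the 3KD groups without *Nr5a2*, *Rarg* and *Nr1h3* siRNA, the highest without 8C NC (3KD) replicate 2), *Ccne2* from 2C to 8C in NC pools without 2C NC replicate 1 (leaving out single pools gave −2.06 to 0.021), and *Ccna2* in the same comparison under quantile normalization (−0.29); the cause was not tested. From 2C to 4C, *Ccnb2* had an adjusted p of 0.0698 without a filter, 0.0747 and 0.0981 under the 2 scalings and 0.0852 and 0.191 without each 4C NC pool. *Ccnd3* from 2C to 8C in NC pools lost its call in 9 of 17 alternatives and *Ccnb2* from 2C to 4C in 8, with adjusted p-values for *Ccnd3* of 0.062 without a filter, 0.103 with the 4KD NC pools alone at 8C and 0.0619–0.33 over the 6 left-out pools that ended it. By the limits of the study's methods, which also ask for a log2 change of 2, other calls fell short as well, and *Ccnd2* from 2C to 4C had 0.0589 under quantile normalization.

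The replicate block lowered the count from 2C to 4C in NC pools from 3 to 2 (*Ccnb2*, adjusted p = 0.0592) and changed no other count of cyclins. Where numbers were not taken to pair samples, correlations were −0.04 to 0.141 in the single KD experiment, 0.004 at 2C and −0.531 to 0.43 in single embryos. In the 4KD experiment they were 0.336 and 0.346 within a stage and −0.297 to −0.271 between stages. A crossed pairing there, of equal numbers within a stage and opposite numbers between stages, was chosen after seeing the data. It called 0 cyclins in the 5 comparisons of that experiment and 1, 1, 7, 0 and 0 genes in all. BE against sgRNA at 2C could not be run within the BE4 set.

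With 2 pools in a group and no read counts, differences in *Ccnd1*, *Ccnd2* and *Ccna1*, which lie near or below 5 FPKM at 8C, could not be resolved from the sampling of few reads.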

Other observations

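Other cyclins and their regulators also differed between the stages, where 72.6% of all genes were called. The genes named here are called genes with the largest changes of their lists, so their size follows from the choice. Of 15 other cyclins 10 were called in single control embryos. *Ccno*, *Ccng2* and *Ccni* went from means of 24.6, 13.7 and 17.1 FPKM at 2C to 1.00, 0.427 and 0.790 at 8C, while *Ccnh*, the partner of CDK7, went from 5.82 to 28.4 (limma adjusted p-values from 1.62e-11 to 8.24e-07). *E2f5*, *Foxm1* and *Rb1* of the Rb and E2F list went from 99.1 to 2.64, from 14.9 to 1.09 and from 7.76 to 0.541. The licensing genes *Cdc6*, *Mcm5*, *Mcm3* and *Mcm7*, which load the replicative helicase, went from 7.49–9.38 to 28.2–39.4. Of 13 mitosis genes 2 were called higher and 2 lower, among them *Aurka*, the centrosome kinase, which went from 93.8 to 212, and *Plk4*, the kinase of centriole duplication, from 36.7 to 9.31. Of 6 genes of the mitotic switch 1 was higher and 3 were lower, with *Cdc25c* going from 48.7 to 8.42 and *Cdc25a* from 7.79 to 13.5.

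Stage markers moved with these genes. In single control embryos 7 of 8 oocyte-deposited genes and 8 of 8 genes of the 2-cell burst were called lower at 8C, 3 of 6 genes of the 8-cell embryo and morula were called higher and 1 lower, and of 8 cumulus and 4 sperm genes 2 and 2 passed the filter, of which 1 and 2 were called lower. At 8C, BE + sgRNA embryos had 1 of 7 oocyte-deposited genes called, *Gdf9*, at 19.6 FPKM against 5.49 in the controls (1.84 on the log2 scale, limma adjusted p = 0.0459), and 6 of the 7 were higher at an unadjusted p below 0.05, beside 0.164% of all genes called and 10.8% at an unadjusted p below 0.05. The 2 libraries of that group named for the 4-cell stage had the highest sums of these genes (182 and 345 FPKM against 37.3–157), and without libraries so named 0 of 9629 genes were called.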
